A study of Homo sapiens with 6 samples.

Results

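The genes described here encode classical cadherins and catenins, the proteins that hold neighbouring cells of an epithelium together, with the epithelial adhesion molecule EPCAM. They were chosen by name, with earlier results of these data known. They hold the cadherin genes CDH1, CDH2, CDH3, CDH4, CDH6 and CDH11 and the catenin genes CTNNA1, CTNND1 and JUP. They also hold EPCAM, which belongs to neither family. All 10 were found among the 61155 gene symbols of the count table, and all 10 passed the filter on low counts. The table compares undifferentiated H7 cells, an established human embryonic stem cell (hESC) line, of wild type (WT) with S6K1-/- cells derived from the same line, in 3 libraries per group. S6K1 is a kinase downstream of mTOR, encoded by RPS6KB1, and its gene was cut with Cas9 and guides placed in exons 9 and 11. Both groups were grown without feeder cells on Matrigel in TeSR-E8 medium and received no differentiation treatment, and all S6K1-/- libraries come from 1 clone, so that a difference between genotypes and one between clones cannot be told apart. The labels give both groups the time of week 5 and call the genotype a knockdown, whereas the methods describe undifferentiated stem cells and a knockout.

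A classical cadherin spans the membrane once, and its outer repeats bind, in the presence of calcium, to a cadherin on the next cell. Its inner tail carries catenins: p120-catenin (CTNND1) sits close to the membrane and keeps the cadherin at the surface, plakoglobin (JUP) binds farther along the tail, and alpha-catenin (CTNNA1) joins the complex to actin. CTNNB1, the gene of beta-catenin, is not a member and is counted below with the other components of adherens junctions. CDH1 encodes E-cadherin, the main cadherin of hESC colonies and of most epithelia, and CDH2 encodes N-cadherin, typical of neural tissue and mesenchyme, and the study took up this pair because adhesion among cells bears on how the eye field parts from the neural plate.

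The study measured the pair by RT-qPCR, and its primers are shown because they mark which parts of the transcripts that assay read, while the counts described here sum over all exons of a gene. The primers are written 5′ to 3′ in lower case.
CDH1 forward: ggttattcctcccatcagct
CDH1 reverse: cttggctgaggatggtgta
CDH2 forward: gcgtctgtagaggcttctgg
CDH2 reverse: gccacttgccacttttcctg
Each primer was found once in the canonical transcript of its gene in GENCODE 44 on GRCh38. In CDH1, on the plus strand at chr16:68737292-68835537, the forward primer lies in the coding part of exon 4 (chr16:68808504-68808523) and the reverse primer in that of exon 7 (chr16:68811755-68811773), 455 nucleotides apart in the spliced transcript, end to end. In CDH2, on the minus strand at chr18:27932879-28177946, they lie in the coding parts of exon 2 (chr18:28147765-28147784) and exon 3 (chr18:28013729-28013748), and span 293 nucleotides. The other members lie at chr16:68636189-68727468 (CDH3, plus strand), chr16:64943753-65126112 (CDH11, minus strand), chr20:61252261-61940617 (CDH4, plus strand), chr5:31193686-31329146 (CDH6, plus strand), chr5:138610967-138935034 (CTNNA1, plus strand), chr11:57753243-57819546 (CTNND1, plus strand), chr17:41754604-41786931 (JUP, minus strand) and chr2:47345158-47387601 (EPCAM, plus strand). CDH3 ends 9823 bases before CDH1 begins, on the same strand.

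Library totals ran from 21896698 to 24473013 counts, and RPS6KB1, the targeted gene, was counted 831, 791 and 777 times in WT and 464, 464 and 438 times in S6K1-/- replicates 1, 2 and 3. Levels are given as CPM, counts scaled to library size with TMM factors, and differences as log2 fold changes of S6K1-/- over WT. A gene is called changed at an adjusted p under 0.001, the threshold of the study, by the quasi-likelihood test of edgeR, adjusted over 19521 genes by the method of Benjamini and Hochberg, and SE is the standard error of a log2 fold change. Neither the labels nor the methods say whether the libraries of a group are separate cultures, so the p-values measure the spread between these libraries, which may be technical. All 8 pluripotency markers of a fixed list were expressed, with POU5F1 at 181 and 177 CPM, NANOG at 191 and 198 CPM and SOX2 at 301 and 292 CPM in WT and S6K1-/- hESCs, and 1 of them, DNMT3B, was lower. Of 8 mesenchyme markers 5 were tested and 3 of these, COL1A1, COL1A2 and PDGFRB, were lower in S6K1-/- hESCs. The summed level of the mesenchyme list was 627 to 645 CPM in the WT and 541 to 561 CPM in the S6K1-/- libraries, most of it THY1, at 488 ± 11.9 CPM in WT and 480 ± 10.1 CPM in S6K1-/- hESCs (SD, n = 3 each). COL1A1 was at 80.2 and 23.2 CPM by mean, and COL3A1, DCN and LUM were at or under 3 counts in every library. The part of other cell types in the differences below was not tested, and in bulk RNA fewer cells of a type and less RNA per cell cannot be told apart.

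In hESCs of both genotypes EPCAM stood highest of the 10. Per kilobase of exon, WT levels were 118 ± 2.59 CPM for EPCAM, 72.3 ± 0.560 for CDH1, 52.5 ± 1.00 for CTNNA1, 36.4 ± 0.769 for CDH3, which encodes P-cadherin, 24.5 ± 0.877 for JUP and 22.6 ± 0.725 for CTNND1 (SD, n = 3 each). CDH2 followed at 6.29 ± 0.287 CPM per kilobase, and CDH4 (R-cadherin), CDH11 (OB-cadherin) and CDH6 (K-cadherin) at 0.803 ± 0.0483, 0.554 ± 0.0413 and 0.202 ± 0.0298 (SD, n = 3 each). In S6K1-/- hESCs the order by mean was the same, but the libraries of JUP and CTNND1 overlapped there, and so did those of CDH4 and CDH11. The order among neighbours depends on the length used. Divided by the length of the canonical transcript, an alternative added after seeing the data, the WT level of CTNNA1 (124 CPM per kilobase) was above that of CDH1 (91.3), CTNND1 (51.7) was above JUP (34.5) and close to CDH3 (52.2 ± 1.10), CDH2 was at 13.4, and CDH11 (1.09) was above CDH4 (0.904).

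**Figure D1:**
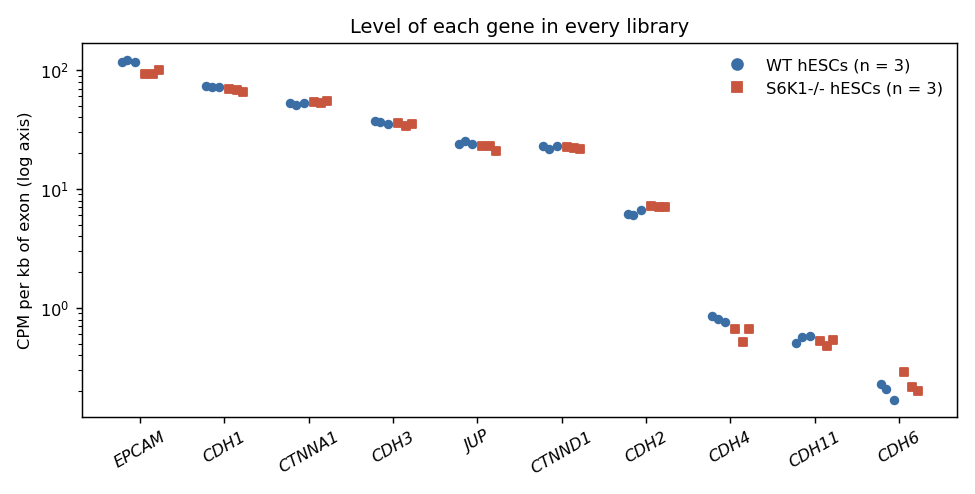
Level of each of the 10 genes in every library, in CPM per kilobase of exon on a log axis, with WT as circles and S6K1-/- as squares. From EPCAM, at 92.1 to 121 CPM per kilobase, to CDH6, at 0.170 to 0.291, the genes span a far wider range than the genotypes differ within any of them.

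Among 18 classical cadherin genes, CDH1 and CDH3 together made up most of the cadherin RNA. As a share of the summed level per kilobase of all 18, CDH1 was 58.9% ± 0.380 in WT and 58.0% ± 0.856 in S6K1-/- hESCs, and CDH3 29.6% ± 0.392 and 29.7% ± 0.852 (SD, n = 3 each). The share of CDH2 was 4.99%, 4.95% and 5.43% in the WT and 5.99%, 6.02% and 6.17% in the S6K1-/- libraries, so that the groups did not overlap. CDH24, a type II cadherin outside the chosen genes, held 4.45% ± 0.252 and 4.54% ± 0.318, a share near that of CDH2 in WT. With the lengths of canonical transcripts, again added after seeing the data, the share of CDH2 was 8.08% ± 0.406 and 9.50% ± 0.140 and that of CDH24 3.61% ± 0.210 and 3.66% ± 0.260 (SD, n = 3 each), so that the nearness of this pair depends on the length used, while the groups of CDH2 again did not overlap. These shares are a description and were not tested.

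Of the 10 genes, 1 was lower and none was higher in S6K1-/- hESCs. Over all genes tested, 2.54% were lower and 1.42% were higher at this threshold. At an unadjusted p under 0.05, 4 of the 10 were lower and 1 was higher, where 14.5% of all genes tested were lower and 11.8% higher. With the Wald test of DESeq2 the counts were 1 lower and none higher, against 2.01% lower and 1.42% higher of the 22871 genes to which it gave an adjusted p. At an adjusted p under 0.01 EPCAM was still the 1 member called, where 4.81% of all genes tested were lower and 2.74% higher. Negative log2 fold changes were found for 7 of the 10 (median of the 10 -0.08), and for 50.6% of all genes tested, whose median was 0.00. In 5 of the 10 no S6K1-/- value lay within the WT range, CDH1, CDH4, JUP and EPCAM being lower and CDH2 higher in every S6K1-/- library, where 16.7% of all genes tested were lower and 14.0% higher without overlap, 30.7% together.

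**Figure D2:**
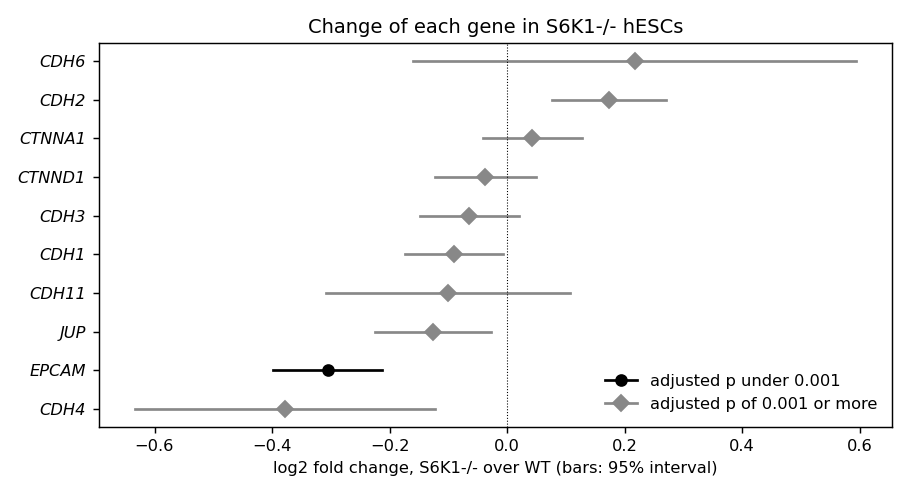
Log2 fold change of each gene in S6K1-/- over WT hESCs with its 95% interval from the quasi-likelihood fit, unadjusted for the number of genes. The interval of EPCAM, from -0.40 to -0.21, belongs to the only gene past the threshold, drawn in black, and those of CDH3, CDH6, CDH11, CTNNA1 and CTNND1 include 0.

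CDH1, the E-cadherin gene, differed little between the genotypes. It had 443, 436 and 439 CPM in WT replicates 1, 2 and 3 and 423, 415 and 399 CPM in S6K1-/- replicates 1, 2 and 3. Each S6K1-/- library was thus below each WT library, but the gap was small. The log2 fold change of CDH1 was -0.09 (SE 0.039, 95% interval from -0.17 to -0.01, edgeR adjusted p = 0.157), a difference of -6.05% that did not pass the threshold. Over the alternatives this p lay between 0.147 and 0.409. From RT-qPCR the study reported more E-cadherin in S6K1-/- than in WT hESCs, whereas CDH1 was lower in these counts. The cause of this disagreement was not tested.

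In these counts the N-cadherin gene differed in the other direction from CDH1 and also missed the threshold. CDH2 had 53.2, 52.0 and 56.7 CPM in the WT and 61.4, 60.1 and 61.0 CPM in the S6K1-/- libraries. The S6K1-/- libraries lay close together, all above the highest WT library. The log2 fold change was 0.17 (SE 0.045, 95% interval from 0.08 to 0.27, edgeR adjusted p = 0.0189), which is 12.7% more than in WT. It passed an adjusted p of 0.05, as 5.47% of all genes tested did in this direction, but not without WT replicates 1 or 2 or S6K1-/- replicate 1 (edgeR adjusted p = 0.0593, 0.0562 and 0.0781). It was the 1 member higher at that threshold. Among neuroectoderm markers PAX6, at 4.47 ± 0.447 CPM in WT and 7.58 ± 0.729 CPM in S6K1-/- hESCs, was called higher, while NES, the most abundant of them, was at 442 ± 10.8 CPM and 424 ± 8.26 CPM, with a log2 fold change of -0.06 (SD, n = 3 each). ELP4, on the other strand, shares 25.4% of the exonic length of PAX6 and had up to 465 counts in a library. The strand setting of the counting is not given in the sources used here. SIX3 (0.15) and SOX1 (1.29 at under 1 CPM) had log2 fold changes above 0 but did not pass the threshold, and EMX2, DLX5 and HES5 were at or under 3 counts in each library. The part of these markers in the difference of CDH2 was not tested.

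The balance of the pair can be read within each library, where no scaling between libraries enters. For each CDH2 count there were 8.33, 8.38 and 7.73 CDH1 counts in the WT and 6.89, 6.91 and 6.55 in the S6K1-/- libraries. The mean was 8.15 ± 0.362 in WT and 6.78 ± 0.202 in S6K1-/- hESCs (SD, n = 3 each), and the groups did not overlap. On the log2 scale the ratio was 0.26 lower in S6K1-/- hESCs (log2 difference -0.26, p = 0.1 from a two-sided exact permutation test over the libraries, the smallest p that 3 against 3 can give). With each library left out in turn the difference stayed between -0.30 and -0.24. CDH1 remained the more abundant of the pair in every library.

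**Figure D3:**
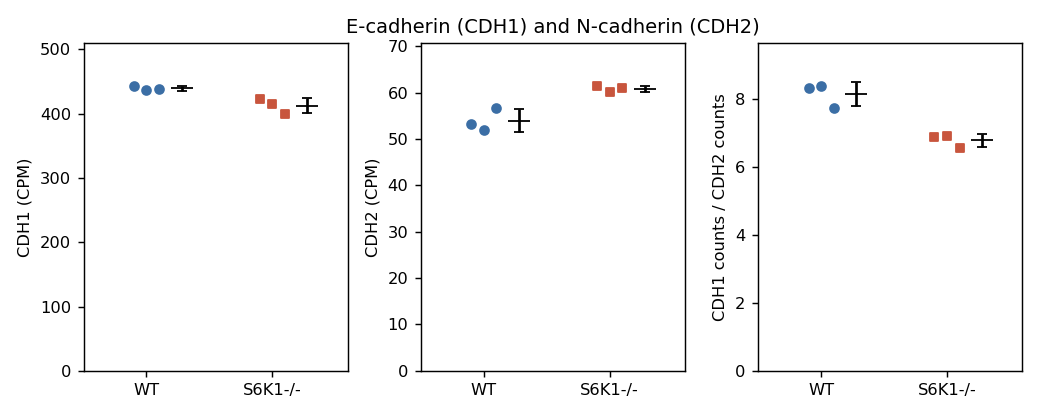
CPM of CDH1 (left) and of CDH2 (middle), and the ratio of their counts (right), for each library, with the mean and SD of each group (n = 3) beside the points and axes that start at 0. CDH1 was 399 to 423 CPM in S6K1-/- against 436 to 443 CPM in WT hESCs, and the ratio 6.55 to 6.91 against 7.73 to 8.38.

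No other classical cadherin among the members passed the threshold. CDH3, the neighbour of CDH1, had 237, 234 and 227 CPM in the WT and 228, 215 and 225 CPM in the S6K1-/- libraries, and the groups overlapped. Its log2 fold change was -0.06 (SE 0.040, 95% interval from -0.15 to 0.02, edgeR adjusted p = 0.339). There were 1.89 ± 0.0372 CDH1 counts per CDH3 count in WT and 1.86 ± 0.0798 in S6K1-/- hESCs (SD, n = 3 each). CDH4, first described in the retina, had 156, 148 and 132 counts in the WT and 118, 94 and 109 in the S6K1-/- libraries. Every S6K1-/- library was below every WT library, with a log2 fold change of -0.38 (SE 0.120, 95% interval from -0.63 to -0.12, edgeR adjusted p = 0.0483). This too missed 0.001, and over the alternatives its adjusted p ran from 0.0306 to 0.237, the highest with DESeq2's Wald test. With any 1 of the 6 libraries left out it was between 0.0608 and 0.178, past 0.05 in none of these fits. CDH4 and EPCAM were the 2 members lower at an adjusted p of 0.05, as 8.31% of all genes tested were.

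CDH6 and CDH11, both type II cadherins, stood at low counts. CDH6 had 69, 64 and 49 counts in the WT and 85, 64 and 54 in the S6K1-/- libraries, a log2 fold change of 0.22 with a 95% interval from -0.16 to 0.59, which was 0.03 without S6K1-/- replicate 1, 0.11 without WT replicate 3 and 0.33 without S6K1-/- replicate 3. CDH11, known from mesenchyme and bone, had 164, 185 and 181 counts in the WT and 166, 153 and 155 in the S6K1-/- libraries, a log2 fold change of -0.10 with a 95% interval from -0.31 to 0.11, which was -0.15 without WT replicate 1 and -0.05 without WT replicate 3 or S6K1-/- replicate 2. The groups overlapped for both (edgeR adjusted p = 0.483 and 0.570). The coefficient of variation of CDH6 was 14.7% in WT and 20.9% in S6K1-/- hESCs, against 0.775% and 2.95% for CDH1.

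Alpha-catenin and p120-catenin were near the same level in both genotypes. CTNNA1 had 470, 454 and 468 CPM in the WT and 481, 465 and 487 CPM in the S6K1-/- libraries, with a log2 fold change of 0.04 (SE 0.039, 95% interval from -0.04 to 0.13, edgeR adjusted p = 0.540). CTNND1 had 349, 332 and 352 CPM in the WT and 341, 339 and 327 CPM in the S6K1-/- libraries, with a log2 fold change of -0.04 (SE 0.040, 95% interval from -0.12 to 0.05, edgeR adjusted p = 0.619). The groups overlapped for both genes. Per CDH1 count there were 1.06 ± 0.0138 CTNNA1 counts in WT and 1.16 ± 0.0538 in S6K1-/- hESCs. For CTNND1 these were 0.784 ± 0.0214 and 0.814 ± 0.00772, and neither ratio overlapped between the groups. That of JUP, 0.276 ± 0.0117 and 0.268 ± 0.00694, did overlap (SD, n = 3 each). These ratios were not tested. The level of CTNND1 is uncertain, since 39.1% of its exonic length is shared on the same strand with a gene that reads through from TMX2, and the read-through gene TMX2-CTNND1 is listed with 0 counts in every library. JUP, which is part of adherens junctions and of desmosomes, had 118, 126 and 118 CPM in the WT and 115, 114 and 104 CPM in the S6K1-/- libraries. These did not overlap, but the log2 fold change of JUP, -0.13 (SE 0.046, 95% interval from -0.23 to -0.03), did not pass the threshold (edgeR adjusted p = 0.0866). With 1 library left out, the log2 fold change of JUP ran from -0.15 to -0.08, the latter without S6K1-/- replicate 3.

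EPCAM fell in S6K1-/- hESCs. This membrane protein of epithelia, abundant in undifferentiated hESCs, had 6912, 7215 and 6541 counts in the WT and 5312, 5357 and 5340 in the S6K1-/- libraries. After scaling these were 284, 293 and 282 CPM against 226, 224 and 245 CPM, with S6K1-/- replicate 3 nearest to WT. EPCAM fell by 19.1%, with a log2 fold change of -0.31 (SE 0.044, 95% interval from -0.40 to -0.21, edgeR adjusted p = 1.76e-04). Its direction held with each library left out in turn, with a log2 fold change from -0.34 to -0.28, but the adjusted p was then above 0.001 in 4 of the 6 fits, reaching 0.00103 and 0.00121 when WT replicate 1 or 3 was left out and 0.00233 and 0.00189 when S6K1-/- replicate 1 or 2 was. For each CDH1 count there were 0.652 ± 0.0182 EPCAM counts in WT and 0.563 ± 0.0450 in S6K1-/- hESCs (SD, n = 3 each), with no overlap. Mitochondrial genes held 9.51% and 9.74% of the counts in S6K1-/- replicates 1 and 2 and 8.54% in replicate 3, against 8.63% to 8.78% in WT, and the part of this in the difference of EPCAM was not tested. EPCAM is also the member with the smallest p, at place 518 among all genes tested. The summed level of the 8 pluripotency markers was 4984 to 5046 CPM in the S6K1-/- against 5297 to 5378 CPM in the WT libraries. Most of this difference was DNMT3B, at 1106 ± 48.5 CPM against 1412 ± 16.3 CPM (SD, n = 3 each), while NANOG, LIN28A and ZFP42 were higher by mean and the list did not move as 1 group. The amnion and trophoblast markers summed to 17.8 to 19.8 CPM in the S6K1-/- and 20.7 to 22.5 CPM in the WT libraries, without overlap, with ISL1, HAND1 and CGA at or under 3 counts. Those of mesendoderm and endoderm summed to 17.1 to 18.5 CPM and 17.8 to 21.4 CPM, with overlap and with SOX17 and GATA6 at or under 3 counts. KRT7 (edgeR adjusted p = 0.00103) and FOXA2 (0.00108), both lower by mean, came nearest to the threshold in these lists. MIXL1, the most abundant mesendoderm and endoderm marker, was higher by mean, at 11.0 ± 0.560 CPM in WT and 12.9 ± 0.281 CPM in S6K1-/- hESCs (edgeR adjusted p = 0.0449). GABRP, the most abundant of the amnion and trophoblast list, was at 15.3 ± 1.33 CPM and 15.0 ± 1.24 CPM (SD, n = 3 each). The part of these markers in the difference of EPCAM was not tested.

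**Figure D4:**
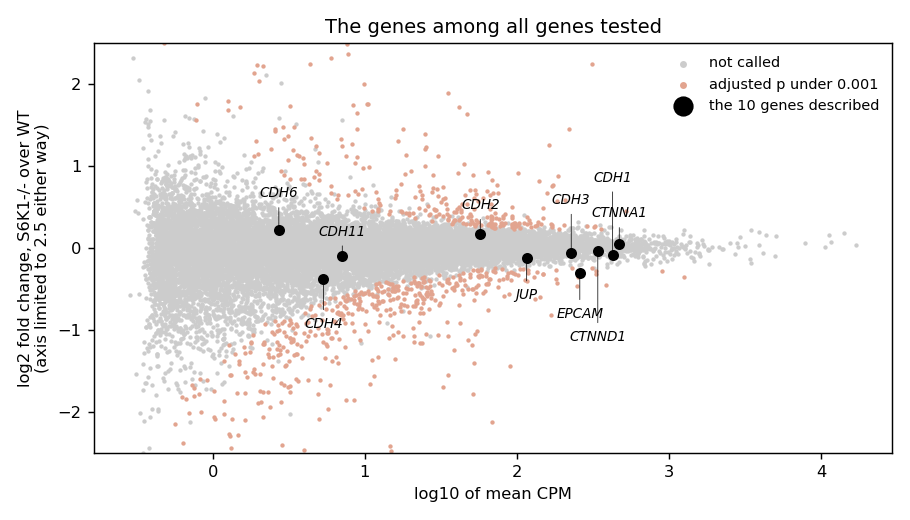
Log2 fold change of S6K1-/- over WT against mean CPM (log10) for all genes tested, with called genes in orange and the 10 genes described in black. EPCAM, at -0.31, is the only one of the 10 among the called genes, and the log2 fold changes of the other 9 run from -0.38 (CDH4) to 0.22 (CDH6).

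Genes that work with these adhesion proteins were taken from 6 lists by function, which were also chosen with earlier results of these data known. Of 12 other classical cadherin genes, only CDH7, CDH8, CDH20 and CDH24 were tested and none was called higher or lower by edgeR's quasi-likelihood test or by DESeq2, with 1 lower at an unadjusted p under 0.05 (14.5% of all genes tested). This gene, CDH8, had 127, 131 and 125 counts in the WT and 84, 98 and 94 in the S6K1-/- libraries (log2 fold change -0.41, edgeR adjusted p = 0.0258). Its adjusted p was above 0.05 in 5 of the 6 fits that left out 1 library (0.0535 to 0.127) and 0.200 with DESeq2's Wald test. CDH24 had a log2 fold change of -0.04 (SE 0.069). The median of the 4 was -0.28, and all 4 were below 0. The other 8 stayed at or under 13 counts in each library.

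Of 21 other components of adherens junctions, all tested, 1 rose and 1 fell (3 higher and 7 lower at an unadjusted p under 0.05, against 11.8% and 14.5% of all genes tested, and 1 higher and 2 lower with DESeq2). The median log2 difference was -0.06, and 13 of 21 were below 0, as 50.6% of all genes tested were. NECTIN3, an immunoglobulin-like adhesion molecule that is tied to actin through afadin, had 631, 634 and 622 counts in the WT and 944, 910 and 877 in the S6K1-/- libraries. All S6K1-/- libraries were above all WT libraries, and NECTIN3 rose from a mean of 26.2 ± 0.537 CPM to 39.5 ± 1.29 CPM (SD, n = 3 each; log2 fold change 0.59, SE 0.053, edgeR adjusted p = 1.68e-06). CTNNA3, which encodes the alpha-catenin best known from heart muscle, had 228, 195 and 234 counts in the WT and 58, 69 and 34 in the S6K1-/- libraries. It fell from a mean of 9.12 ± 1.09 CPM to one of 2.30 ± 0.675 CPM (SD, n = 3 each; log2 fold change -1.97, SE 0.162, edgeR adjusted p = 6.47e-07). LRRTM3, which lies within CTNNA3 on the other strand and shares 177 exonic bases with it, had at most 16 counts in any library. Both calls held with each library left out.

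Of 11 genes that act on the surface level or turnover of cadherins, such as the receptor phosphatase PTPRF and the recycling GTPase RAB11A, none was called by edgeR's quasi-likelihood test or by DESeq2, with 1 higher and none lower at an unadjusted p under 0.05 (11.8% and 14.5% of all genes tested). On the log2 scale the median of the 11 was 0.04, and 2 were below 0. PTPRF, at 319 ± 18.6 CPM in WT and 336 ± 17.5 CPM in S6K1-/- hESCs, and RAB11A, at 168 ± 8.34 CPM and 176 ± 4.73 CPM (SD, n = 3 each), were the most abundant of them, and their groups overlapped.

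The list of epithelial regulators and partners of EPCAM held 14 tested genes, of which 1 fell and none rose (7 lower and 2 higher at an unadjusted p under 0.05, against 14.5% and 11.8% of all genes tested, and 1 lower and none higher with DESeq2). The median of the 14 was -0.13 on the log2 scale, and 10 were below 0. The gene that fell was CLDN7, which encodes claudin-7, a protein known to bind EPCAM. It had 1803, 1867 and 1656 counts in the WT and 1271, 1370 and 1161 in the S6K1-/- libraries, with no overlap after scaling. CLDN7 fell from a mean of 73.8 ± 2.34 CPM to one of 54.9 ± 2.05 CPM (SD, n = 3 each; log2 fold change -0.43, SE 0.045, edgeR adjusted p = 9.63e-06), and the call held with each library left out. A gene on the same strand shares 10.8% of the exonic length of CLDN7. ESRP1, the splicing regulator of epithelia, was at 211 ± 3.30 CPM and 217 ± 0.917 CPM, a log2 fold change of 0.04, and SPINT1, a protease inhibitor of epithelial surfaces, at 169 ± 6.55 CPM and 157 ± 4.55 CPM, a log2 fold change of -0.11 (SD, n = 3 each). Neither passed the threshold (edgeR adjusted p = 0.507 and 0.112).

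Of 12 mesenchymal regulators and markers, which repress epithelial cadherins or mark cells that have lost them, 8 were tested, 2 fell and none rose (3 lower and 2 higher at an unadjusted p under 0.05, against 14.5% and 11.8% of all genes tested, and 2 lower and none higher with DESeq2). VIM, the intermediate filament vimentin, had 1466, 1692 and 1482 counts in the WT and 980, 1103 and 958 in the S6K1-/- libraries and fell from 64.3 ± 4.32 CPM to 43.9 ± 2.17 CPM, with a log2 fold change of -0.55 (SE 0.056, edgeR adjusted p = 6.22e-06). TWIST2, a transcription factor, had 171, 200 and 179 counts in the WT and 89, 100 and 74 in the S6K1-/- libraries and fell (95% interval of the log2 fold change from -1.25 to -0.76, edgeR adjusted p = 1.80e-05). The median of the 8 was 0.02, with 3 of 8 below 0. An antisense gene, VIM-AS1, shares 12.7% of the exonic length of VIM and had up to 453 counts in a library, and the strand setting of the counting is not given in the sources used here.

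Of 9 desmosome genes 8 were tested, 2 fell and none rose at this threshold (3 lower and 2 higher at an unadjusted p under 0.05, against 14.5% and 11.8% of all genes tested). Both that fell encode plakophilins, which link desmosomal cadherins to the plaque that also holds JUP. PKP3 had 99, 95 and 79 counts in the WT and 42, 29 and 44 in the S6K1-/- libraries, with a log2 fold change of -1.18 (SE 0.179, edgeR adjusted p = 3.15e-04). PKP1 had 26, 20 and 11 counts in the WT and 1, 4 and 1 in the S6K1-/- libraries (log2 fold change -3.11, edgeR adjusted p = 7.89e-04). Both rest on few counts. With 1 library left out, the adjusted p was up to 0.00193 for PKP3 and 0.00746 for PKP1, and neither was past 0.001 without WT replicates 1 or 2 or S6K1-/- replicates 1 or 2. Without S6K1-/- replicate 3, PKP1 also was not, and DESeq2 did not call it either (adjusted p = 0.00161 from its Wald test). DESeq2 called 2 lower, PKP3 and PKP2, and 1 higher, DSP, of which PKP2 and DSP are named after their values were seen. The median of the 8 genes was -0.07, with 6 of 8 below 0.

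**Figure D5:**
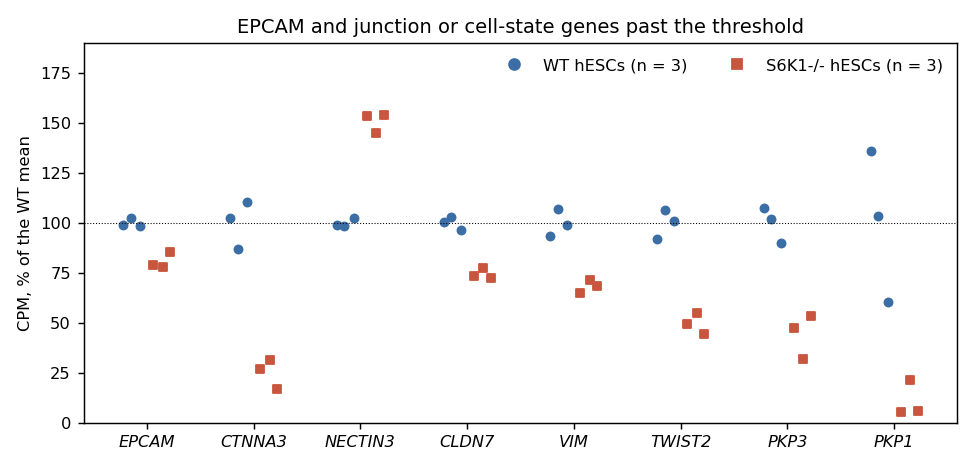
Level in each library, as a percent of the WT mean, of EPCAM and of the genes of the 6 lists past the threshold, with WT as circles and S6K1-/- as squares. NECTIN3 is the 1 gene shown that is higher in S6K1-/- hESCs, and in each gene shown the groups do not overlap.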

How the data were processed

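The authors trimmed paired reads of poly(A) RNA with Trim Galore 0.6.5, aligned them to GRCh38 with Bowtie2 2.4.5, which does not align across splice junctions, and counted reads per gene with featureCounts. The deposited counts are whole numbers for each gene symbol and are not normalized. Which annotation and strand setting were used is not given in the sources used here. A deposited table of the authors' own DESeq2 comparison (fold changes and p-values) was not used.

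Here genes were kept with filterByExpr, libraries scaled by TMM, and groups compared with edgeR 4.0.16 (quasi-likelihood F test, genotype as the only factor) in R 4.3.3. Standard errors are the log2 fold change over the square root of F. The steps were tested on simulated data. The members and lists were chosen with earlier results of these data known. All members were named, and of each list the genes past the threshold, up to 4, or also the 2 most abundant where fewer than 2 passed. Alternatives were DESeq2 1.42.0, its size factors, other filters and thresholds, a replicate block and each library left out. Same-numbered libraries of the groups did not deviate together (correlations of 0.0180, 0.00174 and 0.0316), so that the numbers do not pair them. Libraries of a group differed by more than counting noise (chi-square over its degrees of freedom 2.22 to 4.46). Lengths and positions are from GENCODE 44, to which all 10 members were matched by symbol.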

Additional observations from a re-analysis of the deposited data

How the results depend on the processing

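Of 263 values for RPS6KB1, the 10 members and the genes named by rule from the 6 lists, each under another setting (marker genes are not among them), 248 kept their direction and side of the threshold, 14 lost the call (EPCAM, PKP1 and PKP3) and 1 changed sign (CDH24, log2 fold change 0.000935 without WT replicate 2, and down to -0.0906 with other libraries left out). With each library left out in turn, 0 to 1 members, 0 to 2 desmosome genes and 1 to 2 other adherens junction components were lower, and over all genes 313 to 445 were lower and 175 to 235 higher. At an adjusted p under 0.05, 1 member was higher and 2 lower, 1 other classical cadherin, 5 adherens junction components, 3 epithelial genes, 3 mesenchymal genes and 3 desmosome genes were lower, 1 turnover gene and 1 desmosome gene were higher, and over all genes 1067 were higher and 1622 lower. At 0.01, 4 adherens junction components and 3 desmosome genes were lower, 1 desmosome gene was higher, and over all genes 534 were higher and 939 lower. Without the filter on low counts, 3 adherens junction components were lower, 1 turnover gene and 1 desmosome gene were higher, and over all genes 591 were higher and 982 lower. DESeq2's Wald test gave 2 lower adherens junction components and 1 higher desmosome gene. With at least 10 counts in every library, 1 desmosome gene was lower, since fewer genes were tested. The replicate block gave 1 higher desmosome gene and changed no other list's count. Over all genes it gave 241 higher and 423 lower, and a CDH1 to CDH2 log2 difference of -0.26 (exact sign-flip permutation p = 0.25). WT replicate 1 correlated best with S6K1-/- replicate 2. The cause of these shifts was not tested. CDH4, CDH6, CDH8, CDH11, PKP1 and PKP3 rest on fewer than 200 counts in each library, and the effect of depth on them was not tested.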
